A study of Mus musculus with 6 samples.

Results

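MHC class II genes encode the surface molecules that present peptides to CD4+ T cells. The 10 genes described here are Ciita, the transactivator of the family, the classical chains H2-Aa, H2-Ab1 and H2-Eb1, the invariant chain Cd74, the peptide-editing chains H2-DMa, H2-DMb1 and H2-DMb2, and the H2-O chains H2-Oa and H2-Ob. They were taken by gene symbol among the probes that are not controls, and are 10 of 37074 genes and 19 of 56605 probes on the array. All were measured in LSK cells (lineage marker-, Sca-1+, c-Kit+), the bone marrow fraction that holds haematopoietic stem cells and early progenitors. Control samples (Atg5w/w;Vav) carried wild-type Atg5, and Atg5f/f;Vav samples carried floxed Atg5 alleles, with 3 samples and 3 arrays in each group. Both groups carried the Vav-iCre transgene on a C57BL/6 background and were collected between postnatal day 6 and 8. The Vav promoter drives Cre throughout the haematopoietic lineage, so the deletion was not limited to stem cells and mature blood cells of the same mice were also exposed to it. Whether a sample came from 1 mouse or several is not given in the sources used here, and n and SD refer to arrays.

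As background, Ciita does not bind DNA itself. It is recruited to a complex of RFX, CREB and NF-Y proteins that sits on the conserved X and Y boxes of class II promoters, and its amount sets how strongly these genes are transcribed. The paired alpha and beta chains assemble with the invariant chain, which blocks the groove until H2-DM exchanges its remnant for a peptide, and H2-O restrains H2-DM. Dendritic cells, B cells and macrophages are the cells best known for class II, and interferon-gamma induces Ciita in many other cells, in part through Irf1.

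The sequences below show what the arrays read for the chains of the I-A molecule. Probes are 60-mers in mm9 coordinates, and both start well inside the transcript, at base 227 for H2-Aa and base 528 for H2-Ab1. The H2-Aa probe lies on the minus strand at chr17:34421285-34421344, and the H2-Ab1 probe on the plus strand at chr17:34404357-34404416.
H2-Aa: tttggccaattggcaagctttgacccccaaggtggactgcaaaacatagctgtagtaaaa
H2-Ab1: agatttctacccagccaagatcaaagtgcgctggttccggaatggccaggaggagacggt

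Promoter stretches are shown because the members searched share the letters of the Y box, which the choice of genes did not use. RefSeq promoter windows of GRCm38.p6, from 250 bases before to 50 bases after a start site, were used for 7 member genes in 8 windows, and Ciita, H2-Ab1 and Cd74 were not searched. The Y-like motif GATTGG was searched on both strands, like every motif here, and was present in 7 of the 8 windows, at least once for each of the 7 genes, against 16.1% of all 32851 windows. On the strand of the gene it lay 44 to 62 bases upstream of the start in H2-Oa, H2-Aa, H2-Ob, H2-Eb1 and H2-DMb1, 91 bases upstream in H2-DMb2 and 199 bases upstream in H2-DMa. H2-Eb1 held a further match on the opposite strand, 35 bases upstream. The longer X1-like motif, whose matches are the capitals ahead of the Y-like match below, was found in 3 windows (H2-Eb1, H2-DMb1 and H2-Oa), against 0.968% of all windows. Capitals below mark matches to these motifs, in stretches of 56 bases that end just after the Y-like match. In H2-Oa the X1-like match lay 141 bases upstream, outside the stretch. The stretches, given on the strand of the gene, are chr17:34287861-34287916 (minus) for H2-Aa, chr17:34305763-34305818 (plus) for H2-Eb1, chr17:34153085-34153140 (plus) for H2-DMb1, chr17:34145114-34145169 (plus) for H2-DMb2, chr17:34092291-34092346 (plus) for H2-Oa and chr17:34238803-34238858 (plus) for H2-Ob.
H2-Aa: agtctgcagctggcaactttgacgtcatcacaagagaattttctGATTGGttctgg
H2-Eb1: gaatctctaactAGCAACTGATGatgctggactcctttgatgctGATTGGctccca
H2-DMb1: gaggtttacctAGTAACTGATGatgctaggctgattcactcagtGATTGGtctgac
H2-DMb2: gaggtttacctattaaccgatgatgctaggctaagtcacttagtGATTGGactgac
H2-Oa: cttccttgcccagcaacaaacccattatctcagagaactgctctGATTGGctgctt
H2-Ob: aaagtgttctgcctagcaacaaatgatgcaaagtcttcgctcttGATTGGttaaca

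The H2-DMb1 and H2-DMb2 stretches, from neighbouring copies of one gene, were the same at 50 of 56 positions, while the H2-Aa and H2-Eb1 stretches were the same at 16. The X2-like motif TGNGTCA was found for H2-DMa and H2-Oa, against 15.4% of all windows. In H2-DMa it lay 86 bases upstream, nearer the start than the Y-like match. In H2-Oa it lay on the opposite strand and overlapped the X1-like match. Only these letters were searched, so a gene without a match may hold another form of the box. The interferon-gamma activated site TTCNNNGAA was found for H2-DMb2 only among the 7 genes, against 8.30% of windows, and the longer ISRE-like motif for none of them, against 3.44%. A match describes letters in these windows and does not show binding.

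The 6 arrays shared 1 slide and 1 scan. Every control lay in the upper slide row (1) and every Atg5f/f;Vav sample in the lower (2), and an effect of the row cannot be told apart from genotype. Signals are given as log2 intensity relative to the array's own 75th percentile, so that 0 is that percentile and a difference of 1 is a doubling. The Atg5 probe, at base 2251 of the transcript, read 1.10, 0.93 and 1.06 in controls and 1.46, 1.51 and 1.74 on the arrays labelled Atg5f/f;Vav. Whether it lies in the deleted part is not given in the sources used here, so it does not check the genotype. The 11 LSK markers examined, Kit, Ly6a and Cd34 among them, were detected on all 6 arrays. Ly6a, which encodes the Sca-1 used for the sort, was 2.97-fold higher on the arrays labelled Atg5f/f;Vav (limma adjusted p = 0.00623).

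Of the 10 member genes, 9 were measured well enough to be tested, 4 rose in Atg5f/f;Vav LSK cells and none fell (limma, Benjamini-Hochberg adjusted p under 0.05). Among the 20778 genes tested by the same rule, 34.1% were called, 18.7% higher and 15.3% lower. By probe, 8 of the 14 tested member probes were called higher and none lower, where 34.4% of the 32074 tested probes were called, 17.3% higher and 17.1% lower. Ciita, H2-Aa, H2-Ab1 and Cd74 passed, and H2-Eb1, H2-DMa, H2-DMb1, H2-Oa and H2-Ob did not. At an unadjusted p under 0.05, 7 of the 9 were higher and none lower. That level was reached, in either direction, by 15506 of the 32074 tested probes. The median log2 fold change over the 9 genes was 1.29, beside −0.03 over all genes tested. H2-Aa, H2-Eb1, Cd74 and H2-Ab1 each differed by at least 1.5 on the log2 scale, a size reached upwards by 1.19% of all genes tested. The groups did not overlap in 8 of the 9 genes, 7 with the Atg5f/f;Vav arrays above and 1 below, where 29.6% and 26.3% of all genes did so. With 3 arrays against 3 the smallest 2-sided p of an exact permutation test is 0.1, so single genes cannot pass 0.05 by that test. In these bulk samples, fewer or more cells of a type and less or more RNA per cell cannot be told apart.

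**Figure D1:**
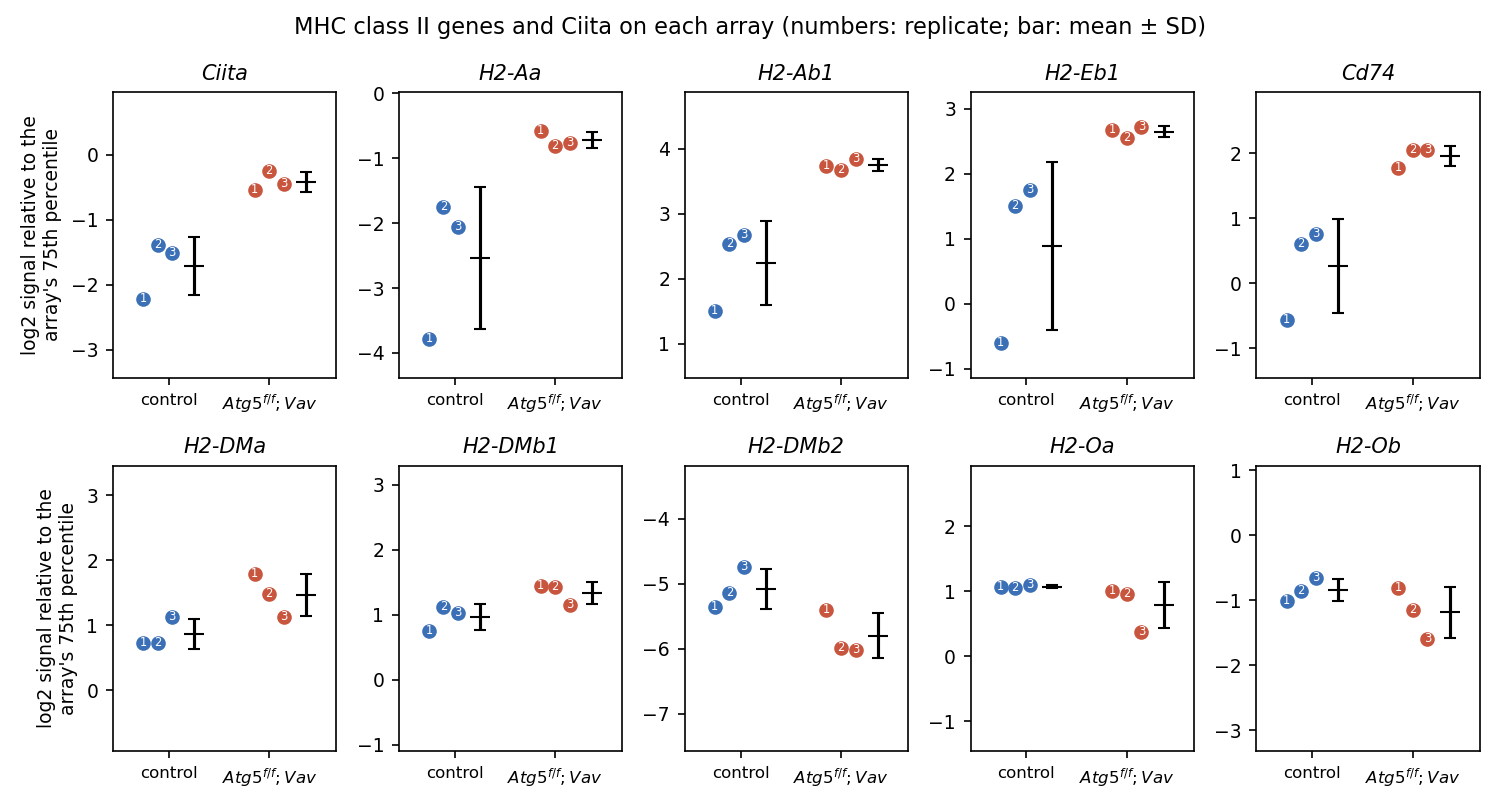
Log2 signal of each member gene relative to the array's 75th percentile, with 1 point per array (numbers are replicates), control in blue and Atg5f/f;Vav in red, and the mean ± SD (n = 3) beside each group. All panels span the same range but start at different levels. Control replicate 1 lies below the other controls for Ciita, H2-Aa, H2-Ab1, H2-Eb1 and Cd74. H2-DMb2 was above background on 1 array only.

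Ciita, the master regulator of the family, was higher in Atg5f/f;Vav LSK cells. Its brightest probe (A_66_P119948, chr16:10526458-10526517 in mm9, starting at base 4390 of the transcript) read −2.22, −1.39 and −1.52 in the controls and −0.55, −0.25 and −0.46 on the Atg5f/f;Vav arrays. The groups did not overlap, and control replicate 1 was the lowest of the 6. The means were −1.71 ± 0.45 and −0.42 ± 0.15 (SD, n = 3 each), a 2.44-fold rise (log2 1.29, 95% interval 0.75 to 1.83, limma adjusted p = 0.0158). The call was lost without control replicate 1 (log2 1.03, adjusted p = 0.0506) and without control replicate 2 (log2 1.45, adjusted p = 0.0610). In these fits the calls over the whole array also fell, from 11024 probes to 330 and 251. The standard error for Ciita was 0.157 without control replicate 1, beside 0.229 with all 6 arrays.

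A further Ciita probe, at chr16:10492271-10492330 and designed on a cDNA from neonatal thymus, read −4.59, −4.78 and −4.62 in the controls and −4.31, −3.75 and −3.96 in Atg5f/f;Vav. It was close to background, being detected on 2 control arrays and 3 Atg5f/f;Vav arrays, and its groups did not overlap. The rise was 1.58-fold (log2 0.66, limma adjusted p = 0.0258). A probe at chr16:10525904-10525963 was not well above background on any control array and was detected on 1 of the 3 Atg5f/f;Vav arrays, so it was not tested and no fold is given. The remaining Ciita probe, at chr16:10512788-10512847, was detected on no array.

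H2-Ab1, the I-A beta chain, was read by 4 probes, and all 4 were higher in Atg5f/f;Vav. Its brightest probe (A_55_P1962747, chr17:34406296-34406355) read 1.50, 2.54 and 2.67 in the controls and 3.74, 3.67 and 3.85 on the Atg5f/f;Vav arrays. The 3 Atg5f/f;Vav arrays lay within a narrow band above every control, and control replicate 1 was again the lowest. The means were 2.24 ± 0.64 and 3.75 ± 0.09 (SD, n = 3 each), a 2.86-fold rise (log2 1.51, 95% interval 0.80 to 2.23, limma adjusted p = 0.0171). The probe whose sequence is printed above, from a more 5′ part of the transcript, read −2.14, −1.33 and −0.87 in controls and 0.37, 0.11 and 0.39 in Atg5f/f;Vav. Its difference was 3.34-fold (log2 1.74, limma adjusted p = 0.0155), and its groups did not overlap either. The other 2 probes gave log2 fold changes of 1.55 and 1.48 (limma adjusted p = 0.0175 and 0.0171). The brightest probe and 1 of these share 51 bases with a single difference, T51C counted from the 5′ end of the first, so they are not independent readings.

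H2-Aa, the I-A alpha chain that pairs with H2-Ab1, was read by the printed probe (A_52_P343306) at −3.79, −1.76 and −2.06 in the controls and −0.58, −0.81 and −0.77 in Atg5f/f;Vav. Every Atg5f/f;Vav array was above every control, and control replicate 1 was far below the other controls. The means were −2.54 ± 1.10 and −0.72 ± 0.13 (SD, n = 3 each), a 3.52-fold rise (log2 1.81, 95% interval 0.64 to 2.99, limma adjusted p = 0.0322). Without control replicate 1 the difference was 1.19 on the log2 scale and still passed (adjusted p = 0.0456). It missed the threshold without any single one of control replicate 2 and the 3 Atg5f/f;Vav arrays (adjusted p from 0.0568 to 0.0697).

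H2-Eb1, the I-E beta chain, read −0.60, 1.50 and 1.75 in the controls and 2.67, 2.55 and 2.71 on the Atg5f/f;Vav arrays (probe A_55_P2156731, chr17:34453075-34453134). The groups did not overlap, and the spread lay almost entirely in control replicate 1. The means were 0.88 ± 1.29 and 2.65 ± 0.08 (SD, n = 3 each), and the difference of 1.76 on the log2 scale (95% interval 0.39 to 3.13) did not pass (limma adjusted p = 0.0530). Without control replicate 1 it was smaller, 1.02, and passed (adjusted p = 0.0496). In C57BL/6 mice the partner of this chain, listed on the array as H2-Ea-ps, is not expressed because of a promoter deletion, and its probe was detected on no array.

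Cd74, the invariant chain that accompanies every class II molecule from the endoplasmic reticulum, read −0.57, 0.60 and 0.76 in the controls and 1.78, 2.05 and 2.05 on the Atg5f/f;Vav arrays. The groups did not overlap, and control replicate 1 was the lowest array. The means were 0.27 ± 0.73 and 1.96 ± 0.16 (SD, n = 3 each), a 3.23-fold rise (log2 1.69, 95% interval 0.89 to 2.50, limma adjusted p = 0.0173). Without control replicate 1 the difference was 1.28. It lost the call without control replicate 2 (adjusted p = 0.0695), as did H2-Ab1.

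**Figure D2:**
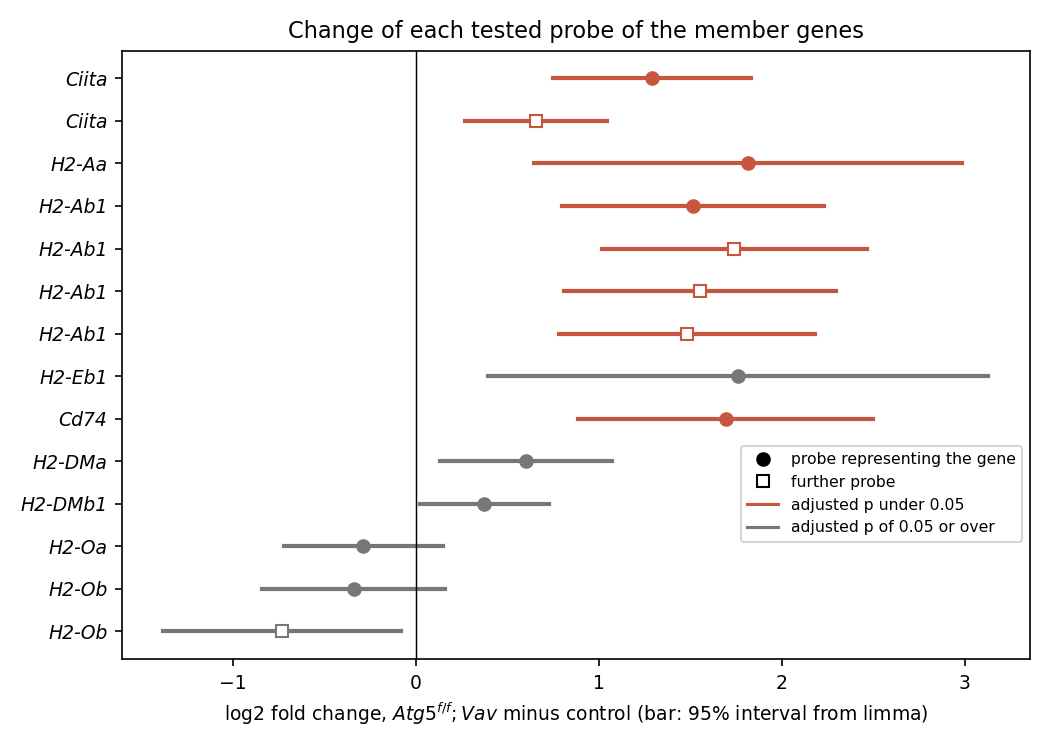
Log2 fold change (Atg5f/f;Vav minus control) of the 14 tested probes of the member genes, with 95% intervals from limma. The 8 probes of Ciita, H2-Aa, H2-Ab1 and Cd74 in red have an adjusted p under 0.05, and the H2-Eb1, H2-DM and H2-O probes in grey do not.

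The H2-DM chains, which exchange the invariant chain remnant for peptide, had positive differences that did not pass. H2-DMa, the DM alpha chain (probe A_51_P473734, spanning chr17:34274300-34274863 across a gap), read 0.73, 0.73 and 1.12 in the controls and 1.78, 1.47 and 1.13 in Atg5f/f;Vav. The groups touched without overlapping, since control replicate 3 and Atg5f/f;Vav replicate 3 were nearly level. The difference was 0.60 on the log2 scale (95% interval 0.13 to 1.07, limma adjusted p = 0.0545), and without Atg5f/f;Vav replicate 3 it was 0.77 (adjusted p = 0.0249).

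H2-DMb1, a DM beta chain (probe A_51_P278868, chr17:34297109-34297168), read 0.74, 1.12 and 1.03 in the controls and 1.45, 1.42 and 1.15 in Atg5f/f;Vav. The lowest Atg5f/f;Vav array was just above the highest control, and the difference of 0.37 on the log2 scale (95% interval 0.02 to 0.72) did not pass (limma adjusted p = 0.0891). Another H2-DMb1 probe was detected on no array. H2-DMb2, a near-identical copy of H2-DMb1 (probe A_52_P1391, chr17:34284764-34284823), was well above background on 1 control array and no Atg5f/f;Vav array, so it was not tested and no fold is given. Whether either probe also catches the other copy is uncertain.

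The H2-O chains, which restrain H2-DM and are best known from B cells, had negative differences that did not pass. H2-Oa, the DO alpha chain (probe A_51_P449325, chr17:34232033-34232092), read 1.07, 1.05 and 1.09 in the controls and 1.01, 0.96 and 0.38 in Atg5f/f;Vav. Controls were almost identical, and Atg5f/f;Vav replicate 3 alone stood well below them. The log2 difference was −0.29 (95% interval −0.72 to 0.14, limma adjusted p = 0.245), and −0.08 without that array.

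H2-Ob, the DO beta chain (probe A_66_P130916, spanning chr17:34380481-34380849), read −1.01, −0.85 and −0.66 in the controls and −0.81, −1.14 and −1.59 in Atg5f/f;Vav. The groups overlapped, with Atg5f/f;Vav replicate 3 again the lowest (log2 difference −0.34, 95% interval −0.84 to 0.16, limma adjusted p = 0.234). The difference was −0.14 without that array and −0.53 without Atg5f/f;Vav replicate 1. A dimmer H2-Ob probe at chr17:34378131-34378190 read −2.72, −2.75 and −2.60 in the controls and −3.01, −3.18 and −4.08 in Atg5f/f;Vav. It had a log2 difference of −0.73 that did not pass (95% interval −1.38 to −0.08, limma adjusted p = 0.0761) and its groups did not overlap, unlike those of the brighter probe. A further H2-Ob probe was detected on no array.

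Control replicate 1 stood apart from the other controls for Ciita, the classical chains and Cd74. It was more than 0.5 below both on the log2 scale in 5 of the 9 tested member genes (Ciita, H2-Aa, H2-Ab1, H2-Eb1 and Cd74), where 0.857% of all genes tested showed such a gap. Its distance from the mean of the other controls was −0.77 for Ciita, −1.11 for H2-Ab1, −1.25 for Cd74, −1.88 for H2-Aa and −2.23 for H2-Eb1. For the tested H2-DM and H2-O genes it was between −0.33 and −0.01, and for H2-DMb2, near background, −0.42. Without control replicate 1, 4 member genes passed (H2-Aa, H2-Ab1, H2-Eb1 and Cd74), and the median log2 fold change was 1.02. Without control replicate 2 none passed, and the number of probes called on the whole array went from 11024 to 251. In that fit 6 member genes had an unadjusted p under 0.05, as did 11455 of the 32074 tested probes.

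**Figure D3:**
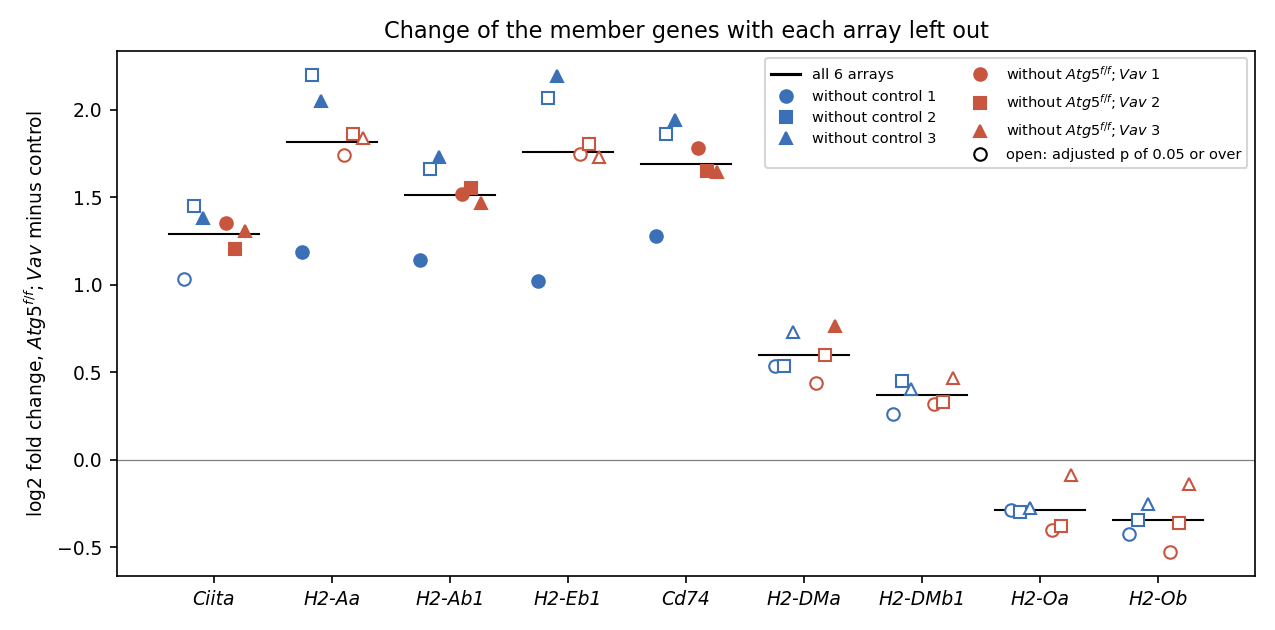
Log2 fold change (Atg5f/f;Vav minus control) of the 9 tested member genes with all 6 arrays (black line) and with each array left out in turn (symbols, open where the limma adjusted p was 0.05 or over). Leaving out control replicate 1 gave the lowest value for Ciita, the classical chains and Cd74, from 1.02 to 1.28, and no direction was reversed.

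Some markers of other blood cells varied across the arrays in the same way. Clec9a, a receptor of cross-presenting dendritic cells, read −6.93, −3.95 and −3.77 in controls and −2.98, −3.31 and −2.53 in Atg5f/f;Vav, and Batf3, a transcription factor of the same cells, read −6.18, −3.54 and −3.84 against −3.12, −3.04 and −2.74. Both were not detected on control replicate 1, and neither difference passed (limma adjusted p = 0.0986 and 0.102). Cx3cr1 and Ccr2, chemokine receptors of monocytes and their precursors, rose by 1.61 and 0.97 on the log2 scale (limma adjusted p = 0.0175 and 0.0209).

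The full marker lists did not all move with the class II genes. Over all genes tested, 18.7% were called higher and 15.3% lower. Among the dendritic cell markers, 8 of 10 were tested, none was called higher by limma (2 at an unadjusted p under 0.05) and 1 lower (Ccr9), and Xcr1 and Cd209a were detected on no array. Their summed linear signal, in units of the array's 75th percentile, ranged from 139 to 170 in controls and from 128 to 154 in Atg5f/f;Vav, most of it from Siglech of plasmacytoid dendritic cells, and from 1.61 to 2.12 and 1.48 to 2.25 without Siglech. Among the monocyte and macrophage markers, 8 of 12 were tested, 2 were called higher (Cx3cr1 and Ccr2) and 1 lower (Lyz2, a lysozyme), Mrc1 was detected on no array, and the sum went from 30.7 to 32.8 in controls and from 16.7 to 27.5 in Atg5f/f;Vav, or from 5.04 to 6.88 and 7.47 to 7.70 without Lyz2.

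Among the B cell markers, 9 of 10 were tested, Cd79a was called higher and Cd22 lower, and Blk was detected on no array. Cd79a was close to background in controls, being detected on 1 control array and 3 Atg5f/f;Vav arrays. The summed signal of the list ranged from 10.3 to 13.2 in controls and from 11.5 to 18.5 in Atg5f/f;Vav. Without Cd79b, the brightest, the sums ranged from 2.52 to 4.55 and from 4.02 to 8.51. The surrogate light chain genes Vpreb1 and Igll1 of early B cells had log2 differences of 1.25 and 1.56 that did not pass (limma adjusted p = 0.109 and 0.134). Col1a1, a collagen gene of stromal cells, also separated control replicate 1, reading −4.14, 3.23 and 2.95 in controls and −5.23, −5.16 and −5.49 in Atg5f/f;Vav, and was detected on no Atg5f/f;Vav array. The part of other cell types in the class II differences was not tested.

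**Figure D4:**
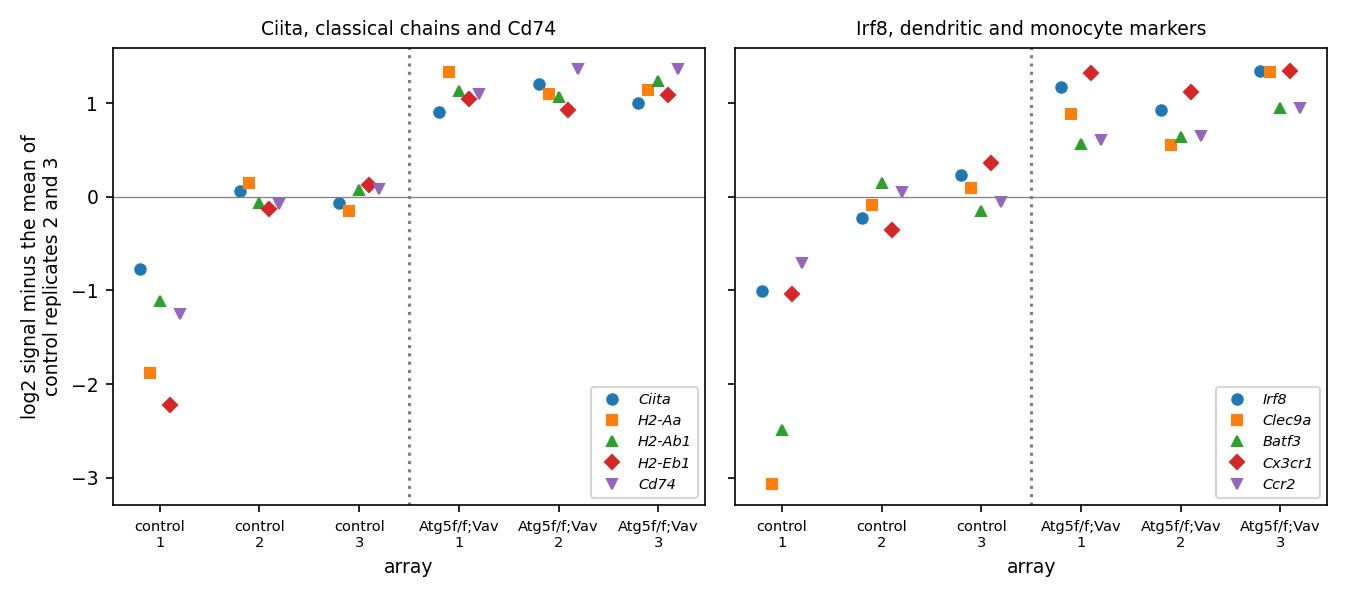
Log2 signal on each array minus the mean of control replicates 2 and 3, for Ciita, H2-Aa, H2-Ab1, H2-Eb1 and Cd74 (left) and for Irf8, Clec9a, Batf3, Cx3cr1 and Ccr2 (right), with 1 symbol per gene. In both panels control replicate 1 lies below 0 for all 5 genes and the Atg5f/f;Vav arrays lie above 0. The genes on the right were picked from longer lists. Other listed markers differed the other way, among them Ccr9 (log2 fold change −1.37) and Lyz2 (−0.86). For Itgax the groups overlapped (−0.09, limma adjusted p = 0.846), with control replicate 1 the lowest array. Irf8 and Cx3cr1 are also among the 5 genes nearest to Cd74 in pattern.

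Of 12 listed regulators of Ciita, all tested, 3 rose and 1 fell, a share near that of all genes tested (34.1% called, 18.7% higher), and their median log2 fold change was 0.14. Without control replicate 1 a single regulator was called, and 2 without control replicate 2. In these fits 1.03% and 0.783% of all probes tested were called. Irf1, which acts at the inducible Ciita promoter, read 3.18, 3.07 and 3.35 in controls and 4.60, 4.63 and 4.92 in Atg5f/f;Vav (log2 1.51, limma adjusted p = 0.00547). Irf8, a factor of the monocyte and dendritic lineages, read 0.70, 1.48 and 1.94 in controls and 2.88, 2.64 and 3.05 in Atg5f/f;Vav (log2 1.49, limma adjusted p = 0.0179), with control replicate 1 the lowest array.

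Socs1, a feedback inhibitor of interferon signalling, rose by 1.31 (limma adjusted p = 0.0114), and Irf2, which competes with Irf1, fell by 0.50 (limma adjusted p = 0.0357). The genes for both chains of the interferon-gamma receptor, Ifngr1 and Ifngr2, and the kinases Jak1 and Jak2 did not pass. For Irf1 control replicate 1 lay between the other controls, unlike for Irf8, Ciita, the classical chains and Cd74.

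The DNA-binding proteins that recruit Ciita did not pass. None of the 7 genes of the RFX, NF-Y and CREB complex (Rfx5, Rfxap, Rfxank, Nfya, Nfyb, Nfyc and Creb1) was called by limma (1 at an unadjusted limma p under 0.05), and their median log2 fold change was −0.17. The methods' t-test called no probe of the whole array after adjustment, so it cannot tell these genes from others. The nearest was Nfyc, an NF-Y subunit, at 0.34 (limma adjusted p = 0.0513). When the arrays were scaled instead by the 75th percentile of probes above background on every array, which moved the median of all probes from −0.06 to −0.27 on the log2 scale, 4 of the 7 were called. In that fit 42% of all probes tested were called, 3371 higher and 10088 lower. Of the other settings, 1 gene was called with normexp background correction, the deposited signal, the filter on all 6 arrays or an intensity trend, and 2 with the mean of a gene's probes. In these fits between 33.8% and 38.1% of all probes or genes tested were called.

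In the class II antigen-processing list, 3 of 9 genes rose and none fell (limma, 2 lower at an unadjusted p under 0.05), with a median of 0.13, and this share was likewise near that of all genes tested. None of the 9 was called without control replicate 1 or without control replicate 2, where 1.03% and 0.783% of all probes tested were called. Ifi30, an interferon-inducible thiol reductase of the endocytic route, rose by 1.54 (limma adjusted p = 0.0161), Ctss, the cathepsin that trims the invariant chain, by 0.60 (limma adjusted p = 0.0284), and Ctsd, an aspartic protease, by 0.57 (limma adjusted p = 0.0262). Over all genes tested, 18.7% were called higher. Of 8 other genes of the class II region, 7 were tested and 4 rose, with a median of 0.65. These were Tap1 (1.82), Psmb9 (1.58), Psmb8 (1.20) and Tap2 (0.65), which serve class I presentation and lie among the class II genes, with limma adjusted p between 0.00785 and 0.0325. Without control replicate 1, 3 of the 7 were called, and 2 without control replicate 2, beside 1.03% and 0.783% of all probes tested. The class II beta gene H2-Eb2 and Btnl2 of the same region were not called.

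Costimulatory genes, whose products dendritic cells raise at the surface as they mature, showed no rise that passed. At an unadjusted limma p under 0.05, 1 was higher and 3 lower, and the list's median log2 fold change was −0.58. Of 7 genes 5 were tested, Cd80 fell by 0.58 (limma adjusted p = 0.0223), and Cd86 (−0.49), Cd83 (−0.73), Pdcd1lg2 (−0.60) and Cd274 (0.35) did not pass. Cd40 and Icosl were detected on no array. Across these 5 lists, with 7, 12, 9, 7 and 5 genes tested, 12 passed, where 34.1% of all genes tested were called. Without control replicate 1 or without control replicate 2, 4 passed. In these fits 1.03% and 0.783% of all probes tested were called.

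**Figure D5:**
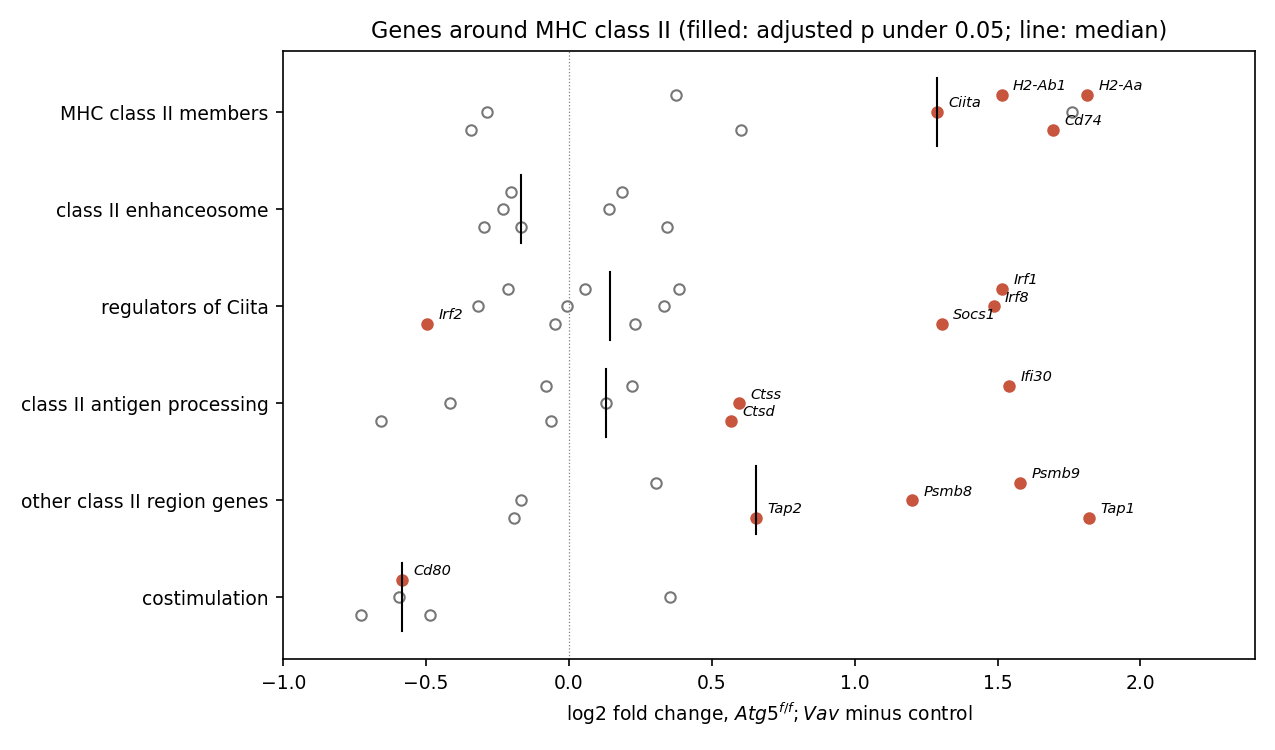
Log2 fold change (Atg5f/f;Vav minus control) of each tested gene in the class II family and the 5 surrounding lists, filled and named where the limma adjusted p was under 0.05, with a line at each list's median. Tap1 (1.82) and H2-Aa (1.81) lie farthest to the right, and no gene of the enhanceosome, the RFX, NF-Y and CREB complex, is filled.

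The genes whose pattern over the 6 arrays was nearest to that of a member were found by the root mean square difference between centred log2 values, among 18373 genes detected on all 6 arrays. Nearest to Ciita were Ccl5 (difference 0.115), Olfm1 (0.132), Ms4a6c (0.138), 9330175E14Rik (0.158) and Serpina3g (0.161). Nearest to Cd74 were Rab7b (0.156), Mpeg1 (0.214), Aif1 (0.216), Irf8 (0.222) and Cx3cr1 (0.227). Rab7b, for instance, read −1.71, −0.24 and −0.38 in controls and 0.88, 0.77 and 0.88 in Atg5f/f;Vav, with the same low control replicate 1 as Cd74.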

How the data were processed

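RNA of LSK cells from 3 control and 3 Atg5f/f;Vav samples was hybridised to 1-colour Agilent arrays with 60-mer probes. The authors deposited scanner files with an intensity for each spot after background subtraction and detrending (Feature Extraction 12.0.3.1 per the labels), unscaled across arrays. A deposited table gives normalised signal, the same intensity divided by 1 factor per array, which varied within an array by at most 0.000267% when checked. From the intensities, log2 values were centred on the 75th percentile of the array's 59305 non-control spots. Spots with an outlier flag (64 to 81 an array) were dropped, none was saturated, and replicate spots were averaged.

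The 32074 probes well above background on 3 or more arrays entered limma (version 3.58.1, R 4.3.3, 2-sided moderated test by eBayes), and p-values were adjusted over all of them by Benjamini-Hochberg with a threshold of 0.05. A gene is represented by its brightest tested probe. The steps were tested on simulated data. Arrays give no read depth, and precision is limited by how many there were. Groups and replicate numbers follow the sample labels, and p-values measure only the spread between these samples.

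The member genes, the lists (enhanceosome, regulators of Ciita, antigen processing, class II region, costimulation and dendritic cell, B cell, monocyte and macrophage, T cell, stromal and endothelial, and LSK markers) and the rules were chosen with earlier results of these data known. Named are all members, at most 3 list genes each way past the threshold, defining markers, and the 5 genes nearest to Ciita and to Cd74. Tap2, Ptprc and genes that did not pass are named to account for their lists. As alternatives, the analysis was repeated with normexp (offset 50), with quantile normalisation, with the deposited signal, a percentile over probes detected on all arrays, no filter, a filter on all 6 arrays, flagged spots kept, an intensity trend, the methods' t-test, a replicate block, the mean of a gene's probes, and each array left out. 1 gene of the list of regulators is not reported here and is left out of its counts. A slide block could not be fitted, since all arrays shared 1 slide.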

Additional observations from a re-analysis of the deposited data

How the results depend on the processing

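None of the 9 tested member genes changed direction under the alternatives run. Of 153 values of single member genes under alternatives, 129 kept their side of the threshold, 14 lost it and 10 gained it. The number of probes called went from 11024 to 4538 without a filter on dim probes, and ranged from 251 (without control replicate 2) to 10304 when single arrays were left out, with 330 without control replicate 1. The methods' t-test called 0 probes after adjustment, with 13539 at an unadjusted p under 0.05, and 0 member genes, with 4 at an unadjusted p under 0.05. The number of member genes called ranged from 0 to 5 with each array left out. The 12 calls in the 5 surrounding lists became 7 without a filter, 0 with the methods' t-test, and 4 to 14 with each array left out. The percentile over probes detected on all arrays gave 3371 probes higher and 10088 lower, against 5540 and 5484.

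H2-Aa lost its call without a filter (adjusted p = 0.0721) and with the replicate block (0.0551). H2-Eb1 passed with normexp (0.0198), an intensity trend (0.0285) and the filter on all 6 arrays (0.0371), and H2-DMa with these (0.0326, 0.0313 and 0.0405) and with the deposited signal (0.0498), all by limma. The cause was not tested. Same-numbered arrays deviated together only weakly (r from −0.07 to 0.28). This does not settle whether the numbers pair the samples, since differently numbered arrays were not compared in this way. The replicate block gave 10173 probes and 3 member genes. The number of arrays and, for H2-DMb2 and 3 of the 4 Ciita probes, signal near background limit these values.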

Other observations

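Among 7 T cell markers, 5 were tested and none passed (limma, 0 also at an unadjusted p under 0.05), with a median log2 fold change of −0.22, and Cd3g and Cd8a were detected on no array. The summed signal of the list, in units of the array's 75th percentile, ranged from 11.1 to 11.8 in controls and from 9.83 to 10.8 in Atg5f/f;Vav. Of 6 stromal and endothelial markers, 5 were tested, and Col1a1 and Col1a2 were called lower, where 15.3% of all genes tested were. Cdh5 was detected on no array, and the sum of this list ranged from 8.36 to 29.6 in controls and from 4.65 to 7.84 in Atg5f/f;Vav. Col1a2, which encodes a collagen chain, read −0.90, 3.47 and 2.90 in controls and −1.94, −2.10 and −1.60 in Atg5f/f;Vav.

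Among 11 LSK markers, all tested, 1 was called higher (Ly6a) and 4 lower, where 18.7% and 15.3% of all genes tested were called so. The stem cell transcription factor genes Mecom (−1.75), Hlf (−1.65) and Meis1 (−0.78) were called lower, with limma adjusted p of 0.0168, 0.0172 and 0.0484, and Ptprc, the CD45 gene, was called lower just under the threshold (−0.34). The list's sum ranged from 184 to 193 in controls and from 118 to 187 in Atg5f/f;Vav.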
